A study of Mus musculus with 6 samples.

Results

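The 10 genes described here, Cdh1, Ctnnb1, Ctnna1, Jup, Dsg2, Dsc2, Dsp, Pkp2, Pkp3 and Ppl, encode the core proteins of the adherens junctions and desmosomes that hold colon epithelial cells together. They were taken by gene symbol from the 55487 genes of the table, and each had a single row. All 10 passed the filter on low counts, and the level of each was compared between genotypes. The RNA came from intestinal epithelial cells (IECs) isolated from the colon of mice that had drunk dextran sodium sulphate (DSS), an agent that damages the lining of the colon and brings on colitis. Of the 6 libraries, 3 were from Nsd2 f/f mice (labelled WT), in which both Nsd2 alleles are flanked by loxP sites and left intact. The other 3 came from Nsd2 Vil-KO mice (labelled NSD2-FF-VILCRE), which carry the same floxed alleles together with Cre driven by the Villin promoter, which is active in the intestinal epithelium, so that other cell types of the colon keep Nsd2. Both groups received DSS, so no library shows the genes in the uninjured colon. The study's methods give 2% DSS for 5 days at about 2 months of age on a C57BL/6J background, and isolation of the epithelium with EDTA. The day of cell collection, the sex of the mice and whether each library stands for a single mouse are not given in the sources used here, so the p-values measure the spread between these samples only.

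In an adherens junction, the extracellular part of E-cadherin binds E-cadherin on the neighbouring cell, and its tail binds a catenin that is linked through alpha-catenin to the actin cytoskeleton. In a desmosome, desmogleins and desmocollins take the place of E-cadherin, plakoglobin and the plakophilins bind their tails, and desmoplakin ties the plaque to keratin filaments. Both structures are required for the mechanical strength of the intestinal epithelium, which has a single layer of cells, and beta-catenin also acts as a nuclear cofactor of Wnt signalling. Nsd2 encodes the methyltransferase that places the H3K36me2 mark on histone H3. The epithelial barrier under DSS is one of the questions of the study, and the comparison asks whether the transcripts of these junctions differ when Nsd2 is deleted in the epithelium.

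The libraries held between 15439123 and 20350539 counts. Levels are given as CPM, counts scaled to a common library size after TMM normalisation, and genotype differences as log2 fold changes of Nsd2 Vil-KO over Nsd2 f/f from edgeR's quasi-likelihood test on the counts of 14650 genes. Values of a gene in the libraries of a genotype are listed in the order of the replicate numbers. Nsd2 itself stood at 47.9, 51.2 and 24.6 CPM in Nsd2 f/f and at 24.2, 10.4 and 20.8 CPM in Nsd2 Vil-KO. The genotypes did not overlap, but the lowest Nsd2 f/f library lay barely above the highest Nsd2 Vil-KO library (log2 fold change −1.16, SE 0.39, unadjusted p = 0.0217, adjusted p = 0.992). Transcripts of Xist, the RNA that coats the inactive X chromosome of female cells, reached 4296 counts in Nsd2 f/f replicate 3 and 3684 in Nsd2 Vil-KO replicate 2, against at most 5 counts in the other 4 libraries. Over the tested genes, which are not independent replicates, these 2 libraries correlated with the other 4 at a mean Spearman rho of 0.933, whereas those 4 reached 0.981 among themselves. Mitochondrial genes took 19.6% of the counts in Nsd2 f/f replicate 3 and 5.51% to 9.13% elsewhere. Each genotype contains 1 of the 2 libraries with Xist transcripts, and the members' log2 fold changes are therefore given with and without them. For most other genes and most ratios only the values from all 6 libraries are given.

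All 10 members had a positive log2 fold change, that is, a higher mean in Nsd2 Vil-KO, and 0 of 10 passed a test in edgeR's quasi-likelihood fit of the 6 libraries (limma-voom with quality weights is given below). The screening criterion required more than a 1.2-fold change and p below 0.05 before adjustment, which 482 of all tested genes met (3.29%), 241 in each direction. At a Benjamini-Hochberg adjusted p below 0.05, edgeR's quasi-likelihood test called 0 of the 14650 genes (0.00%), and DESeq2 called 4, none of them a member. The members' median log2 fold change was 0.19, between 0.05 for Pkp3 and 0.34 for Dsc2, beside a median of 0.00 for all tested genes and 0.02 for the 9237 genes that averaged 10 CPM or more. Of the tested genes, 7346 had a positive and 7304 a negative sign. The smallest unadjusted p of a member was 0.145, for Pkp2, and the adjusted p lay between 0.992 and 0.999 for every member. In bulk RNA, fewer cells of a type and less RNA per cell cannot be told apart, and this holds for every difference below.

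The members were abundant and their levels spanned a wide range. Per kilobase of merged exons, the scale on which different genes can be compared, Cdh1 led with 303 ± 33.7 CPM per kb (SD over the 6 libraries), followed by Ctnnb1 with 110.2 ± 10.5 and Ctnna1 with 80.3 ± 5.09. The ranges of these 3 adherens junction genes did not overlap each other or those of the other members. Next came Jup with 54.9 ± 7.67, Dsp with 52.9 ± 8.37, Dsc2 with 49.3 ± 10.5, Dsg2 with 46.2 ± 5.87 and Pkp3 with 43.8 ± 2.44 CPM per kb. Neighbours in this order differed by less than their spread, whereas the first and the last of the 5, Jup and Pkp3, differed by more than the SD of either. Pkp2 was lower, at 12.6 ± 1.62 CPM per kb, and Ppl was lowest, at 1.57 ± 0.28 CPM per kb. Together the 10 genes took between 0.327% of all counts in Nsd2 f/f replicate 3 and 0.513% in Nsd2 Vil-KO replicate 3, and Cdh1 alone made up 29.5% to 35.6% of that sum.

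**Figure D1:**
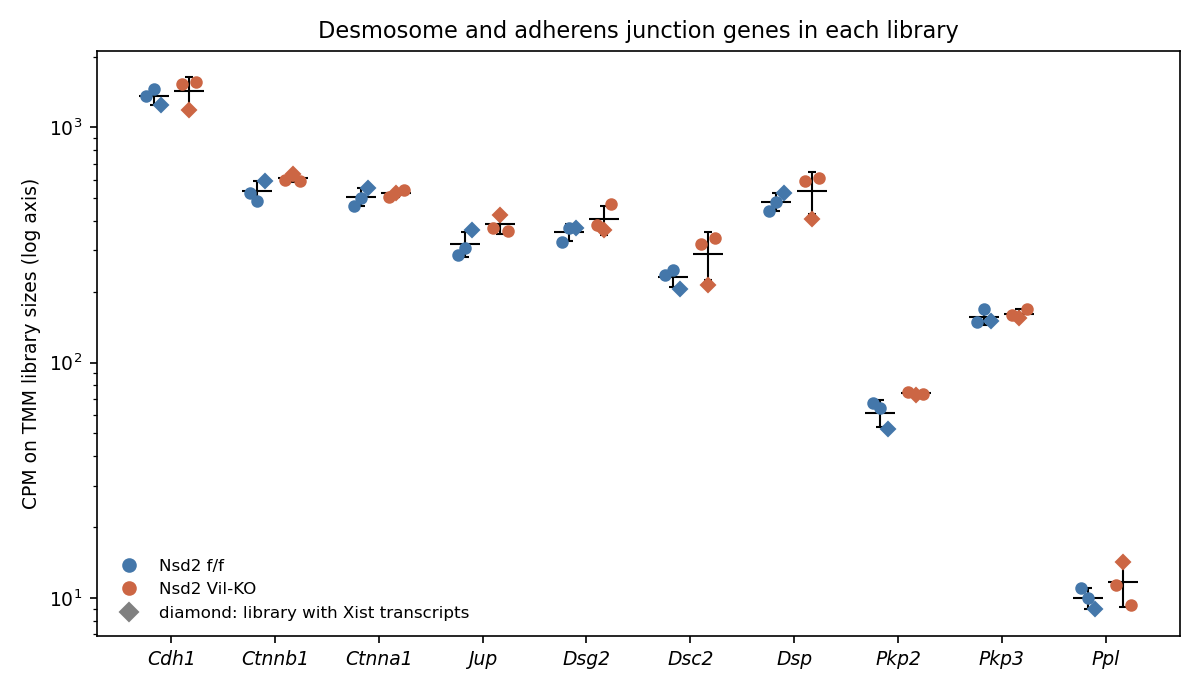
CPM on TMM library sizes (log axis) of the 10 genes in each of the 6 libraries, with Nsd2 f/f in blue and Nsd2 Vil-KO in orange; horizontal lines are the means, bars the SD over 3 libraries, and diamonds the 2 libraries with Xist transcripts. Levels ran from 8.97 CPM for Ppl in Nsd2 f/f replicate 3 to 1563 CPM for Cdh1 in Nsd2 Vil-KO replicate 3, and Pkp2 was the only gene whose genotypes did not overlap.

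Cdh1 encodes E-cadherin, the classical cadherin of the epithelial adherens junction, and lies at chr8:106603351-106670246 (GRCm38, plus strand). In Nsd2 f/f it stood at 1355, 1461 and 1246 CPM, and in Nsd2 Vil-KO at 1522, 1179.85 and 1563 CPM. The lowest and the highest value were both in Nsd2 Vil-KO libraries, and the lowest library of each genotype was the one with Xist transcripts. The means of 1354 ± 107 and 1422 ± 210.4 CPM (SD, n = 3) differed by a log2 fold change of 0.07 (SE 0.24). Its 95% interval, −0.51 to 0.65, corresponds to folds of 0.704 to 1.57, and folds within these bounds cannot be told from each other with 3 libraries per genotype.

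Ctnnb1 encodes beta-catenin, which binds the E-cadherin tail (chr9:120929216-120960507, plus strand). Its levels were 524, 489 and 594 CPM in Nsd2 f/f and 600.3, 636 and 590.1 CPM in Nsd2 Vil-KO. The Nsd2 Vil-KO libraries lay close together, and 2 of them were above each Nsd2 f/f library, while Nsd2 f/f replicate 3 fell just above the lowest of them. The log2 fold change was 0.19 (SE 0.20, 95% interval −0.29 to 0.66, unadjusted p = 0.387 by edgeR's quasi-likelihood test). The exact two-sided permutation test over the 10 divisions of the libraries, whose smallest possible p is 0.1, gave p = 0.2.

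Ctnna1 encodes alpha-catenin, the actin-binding partner of beta-catenin, and is on chromosome 18. It showed the second smallest spread of the members, with 464, 501 and 555 CPM in Nsd2 f/f and 505, 528 and 542 CPM in Nsd2 Vil-KO. The Nsd2 Vil-KO values fell inside the range of the Nsd2 f/f values. The log2 fold change of 0.05 had a 95% interval of −0.41 to 0.51.

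Jup encodes plakoglobin, a relative of beta-catenin that is shared by both kinds of junction, although most of it is found in desmosomes (chr11:100368958-100397763, minus strand). The Nsd2 f/f libraries held 288, 309 and 365 CPM of Jup, and the Nsd2 Vil-KO libraries 372, 426 and 362 CPM. The genotypes overlapped only through Nsd2 f/f replicate 3 and Nsd2 Vil-KO replicate 3, which were nearly equal, and the highest library of each genotype was the one with Xist transcripts. The means of 320.3 ± 39.9 and 387 ± 34.3 CPM gave a log2 fold change of 0.27 (SE 0.20, 95% interval −0.20 to 0.74, unadjusted p = 0.213 by edgeR).

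Dsg2 encodes desmoglein 2, the desmoglein of simple epithelia, on chromosome 18. It stood at 324, 374 and 374 CPM in Nsd2 f/f and at 384, 365 and 472 CPM in Nsd2 Vil-KO. The highest value, in Nsd2 Vil-KO replicate 3, stood above the other 5, which lay between 324 and 384 CPM. The log2 fold change was 0.19 (SE 0.20, 95% interval −0.29 to 0.67).

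Dsc2 encodes desmocollin 2, the desmosomal cadherin that pairs with desmoglein 2 and whose gene lies in the same cadherin cluster. With all 6 libraries it had the largest fold change and the largest ratio of highest to lowest library (1.64) among the members. Levels were 236, 247 and 207 CPM in Nsd2 f/f but 319.9, 214 and 338 CPM in Nsd2 Vil-KO. Within Nsd2 Vil-KO, replicates 1 and 3 were above every Nsd2 f/f library, whereas replicate 2 was lower than Nsd2 f/f replicates 1 and 2. The means of 230.1 ± 21.1 and 291 ± 67.3 CPM gave a log2 fold change of 0.34 (SE 0.23, 95% interval −0.21 to 0.89, unadjusted p = 0.190 by edgeR), with p = 0.3 in the exact permutation test.

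Dsp encodes desmoplakin, which links the desmosomal plaque to keratin filaments (chr13:38151294-38198577, plus strand). It followed the pattern of Dsc2 in the Nsd2 Vil-KO libraries, with 593, 409 and 610.0 CPM, whereas the Nsd2 f/f libraries held 443, 482 and 527 CPM. Replicates 1 and 3 of Nsd2 Vil-KO were the highest of the 6 libraries and replicate 2 the lowest. The log2 fold change was 0.15 (SE 0.24, 95% interval −0.40 to 0.71, unadjusted p = 0.540 by edgeR).

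Pkp2 encodes plakophilin 2, an armadillo protein that binds desmoplakin and desmosomal cadherins (chr16:16213318-16272712, plus strand). It was the single member whose genotypes did not overlap, a separation with the higher values in Nsd2 Vil-KO that 763 of the tested genes (5.21%) showed. The levels were 67.4, 64.4 and 52.1 CPM in Nsd2 f/f and 75.3, 73.1 and 73.8 CPM in Nsd2 Vil-KO. The 3 Nsd2 Vil-KO libraries were nearly equal (74.1 ± 1.13 CPM), and the lowest value was in Nsd2 f/f replicate 3. The log2 fold change was 0.27 (SE 0.17, 95% interval −0.12 to 0.66, unadjusted p = 0.145 by edgeR), and the exact permutation test gave 0.1, the smallest p this design allows. Without Nsd2 f/f replicate 3 the log2 fold change of Pkp2 was 0.17 (unadjusted p = 0.317 by edgeR), and without both libraries with Xist transcripts it was 0.19.

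Pkp3 encodes plakophilin 3, which is expressed in simple and stratified epithelia (chr7:141078218-141090510, plus strand). It was the steadiest member, with 149, 168 and 150.02 CPM in Nsd2 f/f and 160.1, 154 and 169 CPM in Nsd2 Vil-KO, a ratio of 1.13 between the highest and the lowest library. Its log2 fold change of 0.05 (SE 0.16) had the narrowest 95% interval of the 10, −0.34 to 0.43, or folds of 0.792 to 1.35.

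Ppl encodes periplakin, a plakin that binds intermediate filaments and is most abundant in stratified epithelia (chr16:5086291-5132421, minus strand). It rested on far fewer reads than the others, between 111 and 257 counts per library. Its levels of 11.0, 9.99 and 8.97 CPM in Nsd2 f/f and 11.3, 14.3 and 9.35 CPM in Nsd2 Vil-KO overlapped, and the highest was in Nsd2 Vil-KO replicate 2. The log2 fold change was 0.22 (SE 0.26), with the widest 95% interval of the members (−0.41 to 0.84).

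The members varied less between libraries than the median tested gene. Most members averaged far more than 10 CPM, and they were not compared with genes of like level. The ratio of the highest to the lowest library had a median of 1.45 over the members, against 2.14 over all tested genes and 1.79 over those averaging 10 CPM or more. The coefficient of variation within a genotype had a median of 11.2% over the members, against 28.5% and 21.7%. The highest library was Nsd2 Vil-KO replicate 3 for 5 members (Cdh1, Dsg2, Dsc2, Dsp and Pkp3), Nsd2 Vil-KO replicate 2 for Ctnnb1, Jup and Ppl, Nsd2 Vil-KO replicate 1 for Pkp2, and Nsd2 f/f replicate 3 for Ctnna1. Nsd2 f/f replicates 1 and 2 held the highest value of 0 members, and Nsd2 Vil-KO replicates 1 and 3 the lowest value of 0 members. Nsd2 Vil-KO replicate 2 stood apart within its genotype, with the lowest level of Cdh1 and Dsp and the highest of Ctnnb1, Jup and Ppl among the 6 libraries.

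**Figure D2:**
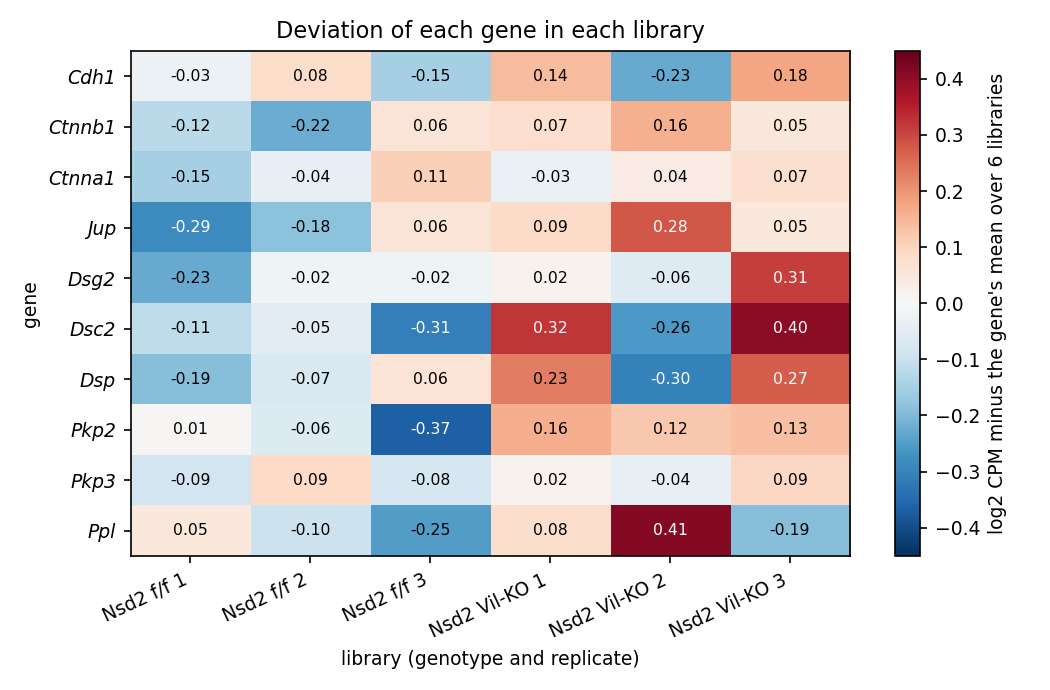
Log2 CPM of each gene (rows) in each library (columns) minus the gene's mean over the 6 libraries, with red above and blue below that mean. Nsd2 Vil-KO replicate 1 was above the mean for every gene but Ctnna1 and replicate 3 for every gene but Ppl, while Nsd2 Vil-KO replicate 2 ranged from −0.30 for Dsp to 0.41 for Ppl.

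Without the 2 libraries with Xist transcripts, 8 of the 10 members were higher in both remaining Nsd2 Vil-KO libraries than in both Nsd2 f/f libraries, a separation shown by 21.3% of the 15030 genes tested in those 4 libraries. The exceptions were Pkp3 and Ppl. In this fit 3 of 10 members passed the screening criterion, as did 1646 genes in all (11.0%), and none had an adjusted p below 0.05. Dsc2 was higher by a log2 fold change of 0.46 (SE 0.11, unadjusted p = 0.00354, adjusted p = 0.329 by edgeR). Dsp was higher by 0.39 (SE 0.11, unadjusted p = 0.0101, adjusted p = 0.366) and Jup by 0.31 (SE 0.11, unadjusted p = 0.0237, adjusted p = 0.404). The 3 genes are a desmosomal cadherin, the keratin linker and the plaque protein that joins them. Dsg2 and Ctnnb1 had log2 fold changes of 0.30 (95% interval −0.03 to 0.63) and 0.24 (−0.02 to 0.51), and Cdh1 had 0.14 (−0.14 to 0.43). Ctnna1 was at 0.13 and Pkp3 at 0.06, and Ppl turned to −0.02.

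The pair of libraries with Xist transcripts gave another picture, with 1 library against 1 and no test. Nsd2 Vil-KO replicate 2 was higher than Nsd2 f/f replicate 3 for 6 members and lower for 4, and the latter comprised Cdh1, Ctnna1, Dsg2 and Dsp. Dsp differed by −0.36 on the log2 CPM scale, opposite to the direction in the other 4 libraries, and Dsc2 by 0.05. Pkp2 (0.49), Ppl (0.67) and Jup (0.22) were higher in Nsd2 Vil-KO replicate 2. Leaving out Nsd2 Vil-KO replicate 2 alone brought only Dsc2 past the criterion (log2 fold change 0.52, unadjusted p = 0.0163 by edgeR), as it did 769 of 15139 genes (5.08%). With all 6 libraries and the presence of Xist transcripts as a covariate in edgeR, 0 of 10 members and 1145 of all genes (7.82%) passed the criterion. In this edgeR fit the log2 fold change was 0.31 for Dsc2 (unadjusted p = 0.062), 0.28 for Jup (unadjusted p = 0.0589), 0.28 for Pkp2 (unadjusted p = 0.0612) and 0.13 for Dsp (unadjusted p = 0.505). With limma-voom and quality weights, which lower the weight of libraries that stand apart, Dsc2 (0.43), Dsp (0.34) and Jup (0.28) passed, as did 1440 genes (9.83%). Whether sex, the state of the epithelium or another property of those libraries has a part in this was not tested.

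**Figure D3:**
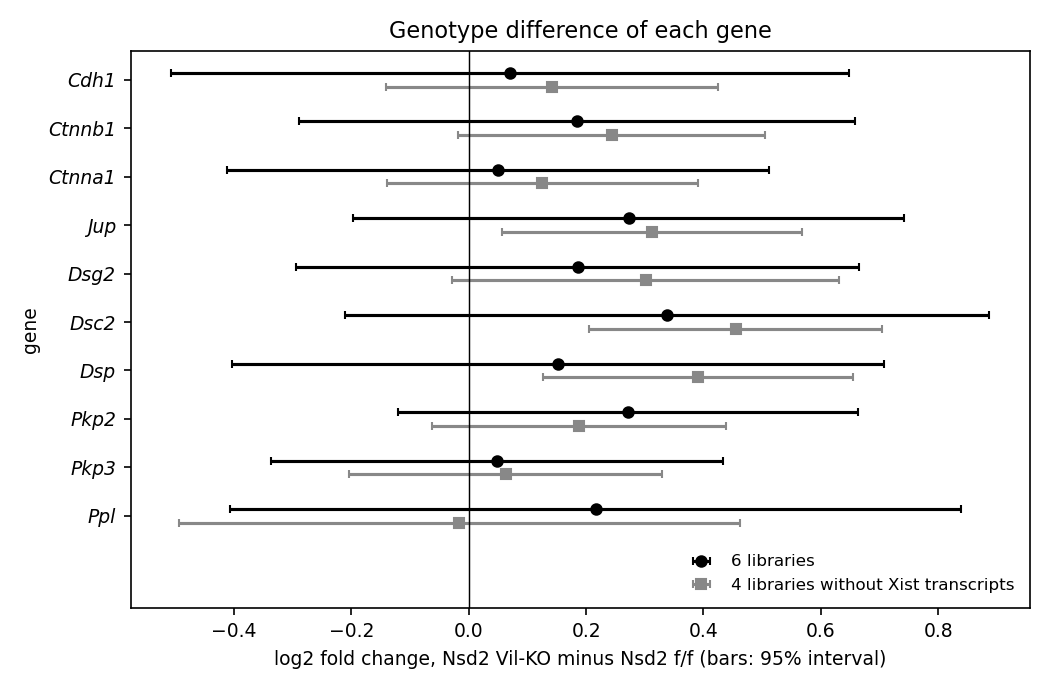
Log2 fold change of Nsd2 Vil-KO over Nsd2 f/f for each gene with its 95% interval, from all 6 libraries (black circles) and from the 4 libraries without Xist transcripts (grey squares). Every interval from the 6 libraries includes 0, and those of Jup, Dsc2 and Dsp from the 4 libraries do not.

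Ratios between members within a library do not depend on how libraries are scaled, and 6 were compared. The ratio of Jup to Ctnnb1 counts, related armadillo proteins that bind cadherin tails, was 0.598 ± 0.044 in Nsd2 f/f and 0.635 ± 0.031 in Nsd2 Vil-KO (SD, n = 3, exact permutation p = 0.5). The ratio of Pkp2 to Pkp3 was 0.394 ± 0.054 and 0.460 ± 0.021 (exact permutation p = 0.2), and that of Ctnna1 to Ctnnb1 0.949 ± 0.071 and 0.863 ± 0.048 (exact permutation p = 0.2). The ratios Dsc2 to Dsg2 (0.647 and 0.712), Ctnnb1 to Cdh1 (0.399 and 0.437) and Ppl to Dsp (0.0209 and 0.0231) also overlapped between genotypes. Adjusted over the 6 ratios, the exact permutation p lay between 0.60 and 0.90, and this design could not have given less than 0.1 before adjustment.

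The rest of the desmosomal gene family was measured in the same libraries. The desmosomal cadherins of stratified epithelia were at or near 0: Dsg1a had 0 counts in all 6 libraries, and Dsg1b, Dsg1c, Dsg4, Dsc1 and Dsc3 had between 1 and 6 counts in total, against 41192 counts for Dsg2 and 28554 for Dsc2. A count of 0 in a library allows a level of up to 3 counts, or 0.147 to 0.194 CPM on unscaled library totals. Dsg3 was uneven, with 102, 6 and 3 counts in Nsd2 f/f and 91, 310 and 6 counts in Nsd2 Vil-KO, and among the 18 alternatives run it passed the criterion only without Nsd2 f/f replicate 1 (log2 fold change 4.55, unadjusted p = 0.0324 by edgeR). Dsg3, the other desmosomal cadherins outside the members and Pkp1 were named after their values were seen. Of the listed desmosome genes outside the members, Perp, a membrane protein of desmosomes, was the highest by CPM. It held 257, 265 and 343 CPM in Nsd2 f/f and 271, 497 and 312 CPM in Nsd2 Vil-KO (log2 fold change 0.32, SE 0.28). Pkp4, a plakophilin relative found in both kinds of junction, stood at 76.9 ± 11.2 and 84.5 ± 6.35 CPM (log2 fold change 0.13, SE 0.18).

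Evpl, which encodes envoplakin, the plakin that forms complexes with periplakin, showed the widest spread of the tested desmosome genes after Dsg3. It held 63.8, 76.5 and 103 CPM in Nsd2 f/f and 119, 13.2 and 110.5 CPM in Nsd2 Vil-KO. Nsd2 Vil-KO replicate 2 was far below the other 5 libraries, and replicates 1 and 3 were above each Nsd2 f/f library, so that the genotype means were nearly equal (81.0 ± 19.9 and 80.8 ± 58.7 CPM). Without the libraries with Xist transcripts its log2 fold change was 0.72 and passed the criterion, which 11.0% of all genes met in that fit. Of the 13 other desmosome genes listed, 6 were tested, 0 passed the criterion in edgeR's fit of the 6 libraries (3.29% of all genes did), 5 had a positive sign, and their median log2 fold change was 0.27.

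**Figure D4:**
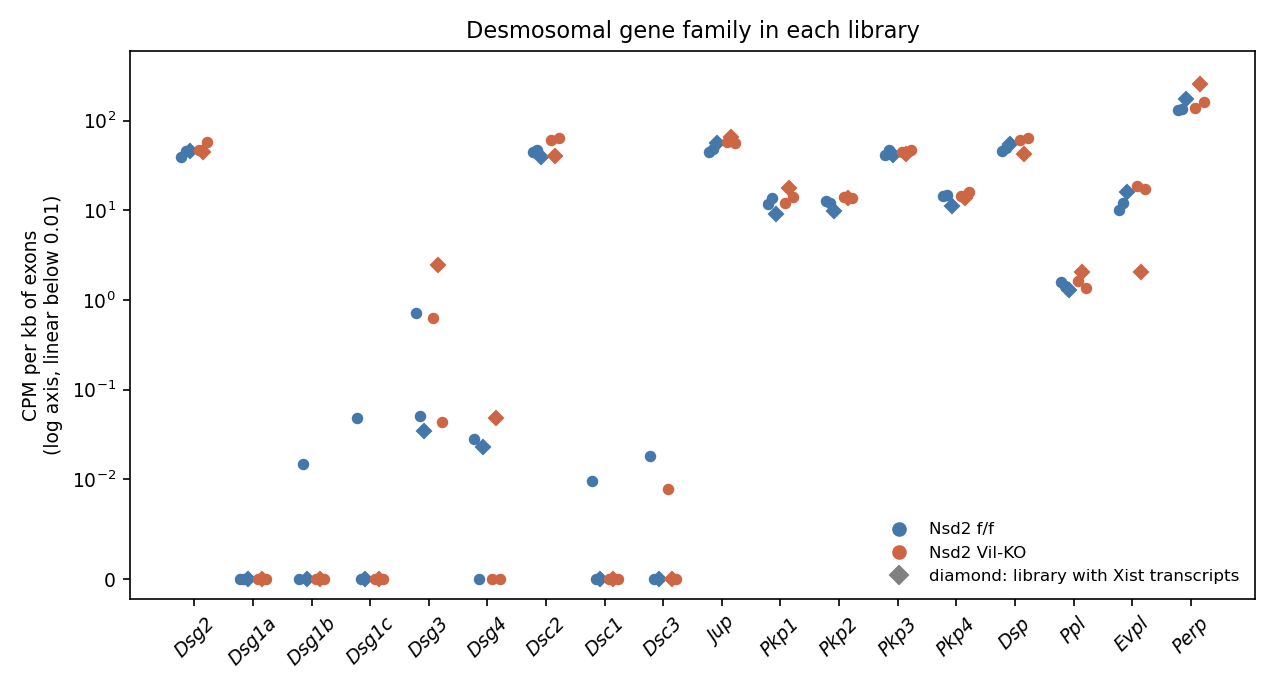
CPM per kb of merged exons of 18 desmosomal genes in each library, on a log axis that is linear below 0.01; diamonds are the libraries with Xist transcripts. Dsg2 and Dsc2 lay between 39.1 and 64.1 CPM per kb, the desmosomal cadherins of stratified epithelia other than Dsg3 were below 0.05 in every library, and Evpl fell to 2.07 in Nsd2 Vil-KO replicate 2.

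A further list of 24 genes held adherens junction genes and also cadherins outside that junction, such as Cdh17 and Cdhr5. Of the 24, 21 were tested, and 13 had a positive and 8 a negative sign. Beside 3.29% of all tested genes, 1 of the 21 passed the criterion. This gene was Nectin4, an immunoglobulin-type adhesion receptor, with 13.5, 11.2 and 1.62 CPM in Nsd2 f/f and 16.6, 41.2 and 26.7 CPM in Nsd2 Vil-KO (log2 fold change 1.67, SE 0.68, unadjusted p = 0.0447, adjusted p = 0.992 by edgeR). The genotypes did not overlap, the lowest and the highest values were those of the 2 libraries with Xist transcripts, and without them the log2 fold change was 0.81 (unadjusted p = 0.0157 by edgeR). Nectin4 did not pass without Nsd2 Vil-KO replicates 2 or 3 or Nsd2 f/f replicate 2, nor with scaling by library size only or by the epithelial markers, a minimum of 10 counts in each library, or Xist presence as a covariate. The 3 most abundant genes of the list were Cdh17, Cdhr5 and Lima1. Cdh17, the liver-intestine cadherin, held 719, 779 and 646 CPM in Nsd2 f/f and 843, 798 and 913 CPM in Nsd2 Vil-KO. Its genotypes did not overlap, with a log2 fold change of 0.25 (SE 0.21, unadjusted p = 0.274 by edgeR). Of the 21 tested genes, 3 were higher in Nsd2 Vil-KO without overlap, a separation that 5.21% of all tested genes showed. Cdhr5, a protocadherin of the brush border, and Lima1, an actin-binding protein, had log2 fold changes of −0.29 (SE 0.29) and −0.12 (SE 0.24). The median over the 21 genes was 0.13.

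Further lists covered genes that act on cadherins and genes of the beta-catenin destruction complex. Of these genes, edgeR's main quasi-likelihood fit of the 6 libraries (TMM normalisation, no covariate) called 0, whereas other fits called some. Among them, limma-voom with quality weights called Adam15 (log2 fold change 0.38) and Gsk3b (0.38) as higher and Ovol2 (−0.32) as lower. Xist presence as a covariate gave Gsk3b (0.34) and Ovol2 (−0.54). The fits without Nsd2 Vil-KO replicate 1 or without Nsd2 f/f replicate 3 called Snai1 as lower (−2.36 and −2.00). Gsk3b was also called as higher with scaling by library size only (0.40) and without Nsd2 f/f replicate 3 (0.46). Csnk1e was called as higher without Nsd2 Vil-KO replicate 3 (0.86). Of 9 genes of cadherin shedding and turnover, all were tested, and their median was 0.10. Of these, 2 were higher in Nsd2 Vil-KO without overlap, as were 5.21% of all tested genes. Adam10, the protease that sheds E-cadherin, stood at 153 ± 22.1 and 183 ± 20.2 CPM (log2 fold change 0.25, SE 0.19), Dnm2, a dynamin of endocytosis, at 233 ± 8.13 and 279.9 ± 39.3 CPM without overlap (0.27, SE 0.19), and Rab11a, of recycling endosomes, at 127 ± 8.08 and 131 ± 28.0 CPM (0.05, SE 0.20). Of 16 listed regulators of cadherin and other epithelial genes, mostly transcription factors with some splicing regulators, 13 were tested, with a median of 0.00. The epithelial factors Klf4, Elf3 and Klf5 were the most abundant, with log2 fold changes of 0.03 (SE 0.28), −0.10 (SE 0.23) and 0.09 (SE 0.23). The mesenchymal repressors of Cdh1 were low, and Snai2 had 0 counts in all 6 libraries. Snai1, which encodes Snail, held 2.43, 0.709 and 0.485 CPM in Nsd2 f/f and 0.683, 0.222 and 0.255 CPM in Nsd2 Vil-KO, with the highest value in Nsd2 f/f replicate 1 and an overlap between genotypes (log2 fold change −1.67, SE 0.78, unadjusted p = 0.0697 by edgeR). Zeb2 reached 5.50 CPM in Nsd2 f/f replicate 1 and lay between 0.0808 and 1.76 CPM in the other 5 libraries. In the same library the fibroblast markers summed to 263 CPM, against 5.05 to 69.9 CPM elsewhere, and the macrophage markers Lyz2 (120.4 CPM), Csf1r (22.1 CPM) and C1qa (25.2 CPM) were at their highest; the part of these cells in the Snai1 and Zeb2 levels was not tested. Snai1, Snai2, Zeb2, Ovol2 and Csnk1e were named after their values were seen. In the beta-catenin destruction complex, 9 of 9 genes were tested and the median was 0.19, with log2 fold changes of 0.08 for Apc (SE 0.16), 0.33 for Csnk1a1 (SE 0.23) and 0.07 for Fbxw11 (SE 0.17). Over these lists 1 of 58 tested genes passed the criterion with all libraries, beside 3.29% of all genes, and 8 passed, beside 11.0% of all genes, without the 2 libraries with Xist transcripts: Vcl, Afdn, Nectin4, Camsap3, Shroom3, Evpl, Adam15 and Gsk3b. All 8 were higher in Nsd2 Vil-KO there, and those other than Nectin4 and Evpl were named after their values were seen.

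The RefSeq promoter table (GRCm38.p6, 250 bases before to 50 after a transcription start) held 3 of the 10 members, Ctnnb1 with 2 windows and Jup and Dsp with 1 each. The windows of Jup and Dsp are shown because these are the genes in the table that passed the criterion in the 4 libraries without Xist transcripts. The motif CAGGTG, the E-box bound by the Snail and Zeb repressors of cadherin genes, was searched on both strands. Lower case letters are the promoter strand read 5′ to 3′, and capitals mark the motif. Jup is at chr11:100397741-100398040 on the minus strand and Dsp at chr13:38151044-38151343 on the plus strand.
Jup: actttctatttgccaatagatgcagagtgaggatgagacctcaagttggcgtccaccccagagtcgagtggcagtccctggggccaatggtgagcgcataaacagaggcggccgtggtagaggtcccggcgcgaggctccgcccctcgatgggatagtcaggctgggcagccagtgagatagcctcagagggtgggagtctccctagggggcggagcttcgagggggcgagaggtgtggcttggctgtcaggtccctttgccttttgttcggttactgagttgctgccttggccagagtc
Dsp: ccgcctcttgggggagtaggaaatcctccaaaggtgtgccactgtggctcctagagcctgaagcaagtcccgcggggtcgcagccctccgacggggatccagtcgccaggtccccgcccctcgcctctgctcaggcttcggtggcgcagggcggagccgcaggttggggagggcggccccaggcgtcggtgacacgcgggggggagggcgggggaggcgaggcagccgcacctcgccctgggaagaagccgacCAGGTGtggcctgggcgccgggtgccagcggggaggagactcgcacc

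The Dsp window held the motif once, at bases 4 to 9 of the transcript (chr13:38151297-38151302), and these letters were not in the Jup window or in either Ctnnb1 window. Of the 32851 promoter windows of this length in the table, 6640 (20.2%) held the motif. The match is a description of the sequence and not a site of binding.

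The cell type markers show what else could be in the samples. All 10 markers of colon epithelium were detected, with summed levels of 14858 to 25156 CPM in Nsd2 f/f and 16324 to 24718 CPM in Nsd2 Vil-KO, and the highest library of each genotype was the one with Xist transcripts. Per 1000 counts on those markers, Cdh1 had 84.4 to 93.2 counts in the 4 other libraries but 49.5 in Nsd2 f/f replicate 3 and 47.7 in Nsd2 Vil-KO replicate 2, and Dsc2 had 14.3 to 19.6 in the 4 against 8.21 and 8.65. The markers did not move alike: Lgals4 stood at 7513 CPM in Nsd2 f/f replicate 3 and 9261 CPM in Nsd2 Vil-KO replicate 2 against 3584 to 4337 CPM in the other 4 libraries, and Krt19 at 5006 and 4219.6 CPM against 2415 to 3245 CPM. Vil1 (549 CPM) and Krt20 (640.2 CPM) were at their lowest in Nsd2 Vil-KO replicate 2. In Nsd2 f/f replicate 3 they were not low, with Vil1 at 988 CPM, its highest value, and Krt20 at 1137 CPM. Cdh1 itself stood at 1246 and 1179.85 CPM in the libraries with Xist transcripts against 1355 to 1563 CPM in the others. With libraries scaled to these markers, 9 of 10 members kept a positive sign, Pkp3 was at −0.0040, and 0 passed the criterion. The squamous epithelial list, which could bring in desmosomal transcripts from the anal margin, summed to 51.4 to 84.4 CPM in Nsd2 f/f and 86.8 to 120.3 CPM in Nsd2 Vil-KO, without overlap. Most of that sum was Pkp1, another plakophilin, with 45.9 to 69.1 and 60.3 to 90.1 CPM. The defining keratin Krt5, with Krt4 and Krtdap, had 0 counts in every library, and Trp63 had at most 2. Of the 6 tested genes of this list, 1 passed the criterion (Krt13, log2 fold change 1.83, at most 2.63 CPM), beside 3.29% of all tested genes. The part of these cells in the members' levels was not tested.

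The other cell type lists had ranges that overlapped between genotypes. Summed levels of the neutrophil and macrophage markers ran from 22.7 to 812 CPM in Nsd2 f/f and from 68.4 to 1002 CPM in Nsd2 Vil-KO, with most of the highest sum in S100a8 (574 CPM) and S100a9 (405 CPM) of Nsd2 Vil-KO replicate 2, where Csf3r (0.666 CPM) and Lyz2 (5.49 CPM) were low. Those of fibroblasts ran from 5.82 to 263 and from 5.05 to 69.9 CPM, and those of lymphocytes and plasma cells from 8.89 to 46.3 and from 9.99 to 56.4 CPM. Smooth muscle (1.78 to 14.9 and 3.22 to 8.73 CPM), endothelium (4.93 to 5.85 and 5.33 to 7.15 CPM) and enteric glia and neurons (0.768 to 1.29 and 0.222 to 0.817 CPM) were low. Of these lists only the endothelial one had genes past the criterion, 2 of 2 tested and in opposite directions, beside 3.29% of all tested genes. Where a member overlaps another gene on the opposite strand, the partner had few counts: 54 in all for Ulk4, which shares 759 exon bases with Ctnnb1, and 48 for the antisense gene Gm16090, which shares 330 with Dsg2. Nsd2, not a member, shares 60 exon bases with Nelfa on the opposite strand, which held 3025 counts in all. The part of Nelfa reads in the Nsd2 counts was not tested.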

How the data were processed

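The authors extracted polyadenylated RNA (the labels name a TruSeq kit and the methods a directional kit of another maker), sequenced paired reads, trimmed them with Cutadapt and Trimmomatic and aligned them to GRCm38 (mm10) with HISAT2. The deposited table holds raw whole-number read counts for each Ensembl gene, not normalised. Which program counted them, and whether strand was used, is not given in the sources used here. All 6 columns were used (0 left out). Gene positions and exon lengths came from GENCODE vM21, which held 99.53% of the gene IDs.

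Counts were analysed with edgeR 4.0.16 in R 4.3.3 (TMM factors, filterByExpr by genotype, robust quasi-likelihood fit without covariates, Benjamini-Hochberg adjustment over 14650 genes), tested first on simulated counts. The study's own test on FPKM was not used because the table holds counts. Single values were compared by exact two-sided permutation tests. Alternatives used DESeq2 1.42.0, limma 3.58.1, other scalings and filters, a replicate block and left-out libraries; the counts over the wider lists under these alternatives and the comparison within the pair of libraries with Xist transcripts were added after seeing the data. The members and lists were chosen with earlier results of these data known. Genes named were Nsd2, the members, and from each wider list the genes past the screening criterion and the 3 of highest mean CPM. Others of these lists are said to be named after their values were seen. Individual markers from the cell type lists were also named after their values were seen. At most 20350539 counts per library limit the precision of low genes, and floors cover counting error only.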

Additional observations from a re-analysis of the deposited data

How the results depend on the processing

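Over 18 alternatives the members' median log2 fold change stayed between 0.14 and 0.24, and 0 members reached an adjusted p below 0.05. Members past the screening criterion numbered 3 with limma-voom and quality weights, 3 without both libraries with Xist transcripts, 0 with Xist presence added as covariate, and 0 to 1 with each library left out in turn. Ctnnb1, Jup, Dsg2, Dsc2, Dsp and Pkp2 had a positive sign under all 18. Leaving out 1 library moved the size of some members. Dsc2 ran from 0.21 (without Nsd2 Vil-KO replicate 3) to 0.52 (without Nsd2 Vil-KO replicate 2). Ppl at 0.35, Jup at 0.32 and Pkp2 at 0.28 were larger than Dsc2 without Nsd2 Vil-KO replicate 3. Jup was also larger than Dsc2 without Nsd2 Vil-KO replicate 1 (0.30 against 0.27) and without Nsd2 f/f replicate 3 (0.38 against 0.27). Pkp2 ran from 0.17 (without Nsd2 f/f replicate 3) to 0.35 (without Nsd2 f/f replicate 1). Dsg2 ran from 0.07 (without Nsd2 Vil-KO replicate 3) to 0.26 (without Nsd2 Vil-KO replicate 2), and Dsp from 0.05 to 0.32 (the same libraries). Ppl ran from 0.05 (without Nsd2 Vil-KO replicate 2) to 0.35 (without Nsd2 Vil-KO replicate 3). Pkp3 ran from 0.01 (without Nsd2 Vil-KO replicate 3) to 0.11 (without Nsd2 f/f replicate 2). The sign turned for Pkp3 with scaling to the epithelial markers (−0.0040), for Ppl with limma-voom (−0.011) and without both libraries with Xist transcripts (−0.016), for Cdh1 without Nsd2 Vil-KO replicate 3 (−0.0027, with a range of −0.0027 to 0.19 over the left-out libraries) and for Ctnna1 without Nsd2 f/f replicate 1 (−0.0088, range −0.0088 to 0.12); all are small beside their errors. Genes past the criterion among all tested numbered 278 with epithelial scaling, 861 without a filter, 1440 with limma-voom, 1646 without both libraries with Xist transcripts, 1145 with Xist presence added as covariate, and 323 to 769 with each library left out. Wider junction genes past it numbered 0 with epithelial scaling, 0 with at least 10 counts in each library, 6 with limma-voom, 8 without both libraries with Xist transcripts, 3 with Xist as a covariate, and 0 to 3 with each library left out. Library size alone moved the median of all genes to 0.05 and that of the members to 0.24, and epithelial scaling moved them to −0.06 and 0.15. The log2 difference of the Ppl to Dsp ratio moved from 0.07 to −0.41 without both libraries with Xist transcripts. Without Nsd2 Vil-KO replicate 2 it was −0.27. That of Ctnnb1 to Cdh1 moved from 0.13 to −0.03 without Nsd2 Vil-KO replicate 2 and to 0.01 without Nsd2 f/f replicate 2. That of Dsc2 to Dsg2 moved from 0.13 to 0.01 without Nsd2 Vil-KO replicate 1 and to 0.27 without Nsd2 Vil-KO replicate 2. For Jup to Ctnnb1 the move was from 0.09 to 0.03 without Nsd2 f/f replicate 1. For Ctnna1 to Ctnnb1 it was from −0.14 to −0.08 without Nsd2 f/f replicate 2. For Pkp2 to Pkp3 it was from 0.23 to 0.14 without Nsd2 f/f replicate 3, and to 0.12 without both libraries with Xist transcripts. The cause of these changes was not tested. Whether the shared replicate numbers pair the samples is not given in the sources used here. Deviations of same-numbered libraries from their genotype means correlated at 0.32, −0.35 and −0.11 for replicates 1, 2 and 3. These values cannot decide it, because the means rest on 3 libraries and the 2 with Xist transcripts carry different numbers. With a replicate block 303 genes, 2 wider junction genes (Nectin4 at 1.98 and Snai1 at −1.54) and 0 members passed the criterion. Depth was lowest for Ppl among the members (111 to 257 counts per library).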
